A study of Mus musculus with 18 samples.

Results

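Chemokines are small secreted proteins that attract cells along a gradient and are held on heparan sulfate at cell surfaces. They are named by the spacing of their first cysteines as CC, CXC, CX3C and XC ligands and signal through receptors of the same naming. In connective tissue cells the inflammatory ligands are known as targets of NF-kappaB and interferon signalling, whereas ligands such as Cxcl12 are made without such a stimulus. The chemokine ligand genes described here were the rows of the authors' deposited fibroblast comparison whose symbol was Ccl or Cxcl followed by a number, Cx3cl1 or Xcl1. They numbered 46 rows with 40 symbols among 35734 rows, and 39 of the symbols had a gene window in both retinal chromatin libraries. Each symbol entered by its name, but the family was chosen with earlier results of these data known. Platelet chemokines under other names, Pf4 and Ppbp, fall outside this choice.

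The fibroblasts were mouse embryonic fibroblasts of the line R26-M2rtTA on C57BL/6, a line that carries the reverse tetracycline transactivator in every cell. Both groups received lentiviral vectors for Brn2 and Myt1l, which are neuronal transcription factors, and were kept on doxycycline for 48 h. One group additionally received vectors for Ikzf1 and Ikzf4, zinc finger factors of the Ikaros family, so the comparison is of Ikzf1 and Ikzf4 added to Brn2 and Myt1l, and no fibroblasts without vectors enter it. The share of cells that took up each vector is not given in the labels. There were 3 RNA-seq libraries per group. Whether these came from separate cultures is not given in the labels, so a p-value measures only the spread between these libraries. The second experiment held 1 control multiome ATAC library, which reads open chromatin in single nuclei, from retina of GLAST-CRE ERT2 ; RosaYFP mice on C57BL/6 with mCherry and labelled as Muller glia, and 1 library labelled Ikzf1/4. The Ikzf1/4 labels repeat the title in place of tissue, mouse line and strain. The labels of both retinal samples name tamoxifen at 14 days; the headers of their files name runs of 48 h. Animal numbers and ages are not given for them.

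The RNA-seq libraries held between 34966344 and 44270426 estimated reads. In the authors' deposited table Ikzf4 and Ikzf1 were 8.54 and 7.76 higher on the log2 scale, which matches the group labels, and of the shared factors Myt1l was 0.50 higher (adjusted p = 0.0157, authors' DESeq2) and Pou3f2, the gene of Brn2, was at -0.05 (adjusted p = 0.689). All 12 fibroblast markers were measured, with mean normalised counts from 230 to 228033, and 9 of them were lower with Ikzf1 and Ikzf4 and none higher, at a list median of -0.39 on the log2 scale. Over all genes with an adjusted p, 15.4% were lower and 15.3% higher at an adjusted p under 0.05. All 12 macrophage markers were measured as well, at means from 115 to 13089, of which 1 was lower (C1qa, -0.17; 3 at an unadjusted p under 0.05) and none higher, at a median of -0.04. No lymphocyte marker of 8 had enough reads for an adjusted p. In bulk RNA, fewer cells of a type and less RNA per cell cannot be told apart, and the part of these marker levels in the chemokine values was not tested.

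Promoter sequences were at hand for 27 of the 40 symbols, in 30 windows of 250 bases before to 50 bases after the RefSeq start (build GRCm38.p6). Of the 9 members that fell in fibroblasts, Ccl2, Ccl7, Ccl11 and Cxcl5 were not among the 27. The 5 shown here belong to members on which the results below turn: Ccl20, Cxcl1 and Ccl8 fell in fibroblasts, Cxcl10 was not past the threshold, and Ccl25 rose. Capitals mark matches on either strand to the NF-kappaB consensus called kappaB, to the ISRE core (TTTC, any 2 bases, TTTC), which is part of interferon-stimulated response elements, or to TGGGAA, a core recognised by Ikaros factors.
Ccl20: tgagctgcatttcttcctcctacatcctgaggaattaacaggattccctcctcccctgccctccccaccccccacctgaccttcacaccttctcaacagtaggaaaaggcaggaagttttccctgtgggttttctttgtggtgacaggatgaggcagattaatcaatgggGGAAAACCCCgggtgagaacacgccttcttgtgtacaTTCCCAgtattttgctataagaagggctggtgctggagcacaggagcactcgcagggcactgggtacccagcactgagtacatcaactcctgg
Cxcl1: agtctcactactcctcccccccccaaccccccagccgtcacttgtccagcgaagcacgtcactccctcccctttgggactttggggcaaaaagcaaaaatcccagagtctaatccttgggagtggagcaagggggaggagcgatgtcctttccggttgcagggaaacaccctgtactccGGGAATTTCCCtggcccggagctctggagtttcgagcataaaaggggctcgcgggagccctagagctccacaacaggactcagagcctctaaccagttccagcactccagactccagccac
Ccl8: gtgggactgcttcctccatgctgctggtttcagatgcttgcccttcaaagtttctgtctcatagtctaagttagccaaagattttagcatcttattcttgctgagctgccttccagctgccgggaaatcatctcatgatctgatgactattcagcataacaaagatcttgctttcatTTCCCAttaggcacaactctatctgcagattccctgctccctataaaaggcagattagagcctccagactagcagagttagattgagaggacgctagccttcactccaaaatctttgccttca
Cxcl10: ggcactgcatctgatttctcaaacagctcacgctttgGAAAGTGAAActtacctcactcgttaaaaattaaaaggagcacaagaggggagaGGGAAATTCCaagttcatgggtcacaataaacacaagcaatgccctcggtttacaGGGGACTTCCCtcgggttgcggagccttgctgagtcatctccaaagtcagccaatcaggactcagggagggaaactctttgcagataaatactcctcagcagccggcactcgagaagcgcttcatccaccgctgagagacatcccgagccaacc
Ccl25: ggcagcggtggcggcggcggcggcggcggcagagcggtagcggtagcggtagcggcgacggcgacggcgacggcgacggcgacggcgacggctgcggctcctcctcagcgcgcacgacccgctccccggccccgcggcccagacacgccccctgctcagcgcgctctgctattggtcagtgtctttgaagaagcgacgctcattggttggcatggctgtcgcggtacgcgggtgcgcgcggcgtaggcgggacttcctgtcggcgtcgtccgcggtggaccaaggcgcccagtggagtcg
These windows lie at chr1:83116516-83116815 (plus strand), chr5:90890995-90891294 (plus), chr11:82114935-82115234 (plus), chr5:92348840-92349139 (minus) and chr8:4324960-4325259 (plus), in the order printed. The last also overlaps the neighbouring gene window of Elavl1, and is 1 of 2 windows of Ccl25, the other starting at 4349338.

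A kappaB match stood in 8 of the 30 member windows, or 26.7%, against 8.46% of 32851 promoter windows of the same length. The ISRE core stood in 3 (10.0%, against 3.44%) and TGGGAA in 8 (26.7%, against 25.6%). The motif TATAAA, left in lower case above, stood in 9 (30%, against 13.6%). In Ccl20 the kappaB match covered bases -80 to -71 from the start, on the strand opposite to the gene, and the TGGGAA match bases -43 to -38. The match in Cxcl1, from -71, overlaps its own reverse complement, and so do those of Cxcl2 from -97 and Cxcl3 from -73, which hold the same 10 letters; both strands of such a site count as matches in the same window. Cxcl10 held 3 kappaB matches, at -159, -104 and -103, the last 2 overlapping on opposite strands, and an ISRE core match from -213. Ccl8 held TGGGAA from -73 and no kappaB match, and the Ccl25 window printed above held none of the 4 motifs, while the other window of Ccl25 held TATAAA from -16. Ccl27a held a kappaB match after the start, from base 31 to 40, in 1 of its 3 windows. The 8 windows with a kappaB match thus belong to members that fell (Ccl20, Cxcl1), to a member that rose (Ccl27a) and to members not past the threshold or with no adjusted p (Cxcl2, Cxcl10, Ccl9, Cxcl3, Ccl1). A match is a description of letters and not a measured site.

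In the fibroblasts, the chemokine genes that changed with Ikzf1 and Ikzf4 mostly fell. Of the 46 rows, 13 had no reads in any library, 9 had reads but no adjusted p, and 24 had an adjusted p in the authors' deposited table. At an adjusted p under 0.05 (authors' DESeq2), 9 of the 24 fell and 2 rose. Over all 16757 genes with an adjusted p, 30.6% were called, 15.4% lower and 15.3% higher. The median log2 fold change of the 24 members was -0.23, against -0.0004 over all genes, and 17 of the 24 had a negative sign. A fall of more than 1 on the log2 scale was seen for 3 members, Ccl20, Ccl7 and Ccl2, against 0.913% of all genes, and no member rose by as much; 2.15% of all genes passed that size in either direction. Per-library values of a gene are not shown because the deposited transcript estimates could not be paired with genes; each value below is the authors' mean over the libraries, log2 fold change and standard error. These fold changes may be shrunk toward 0, since the median standard error in the table is 0.0494 for genes with a mean of up to 2 and 0.218 for means of 10 to 100.

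**Figure D1:**
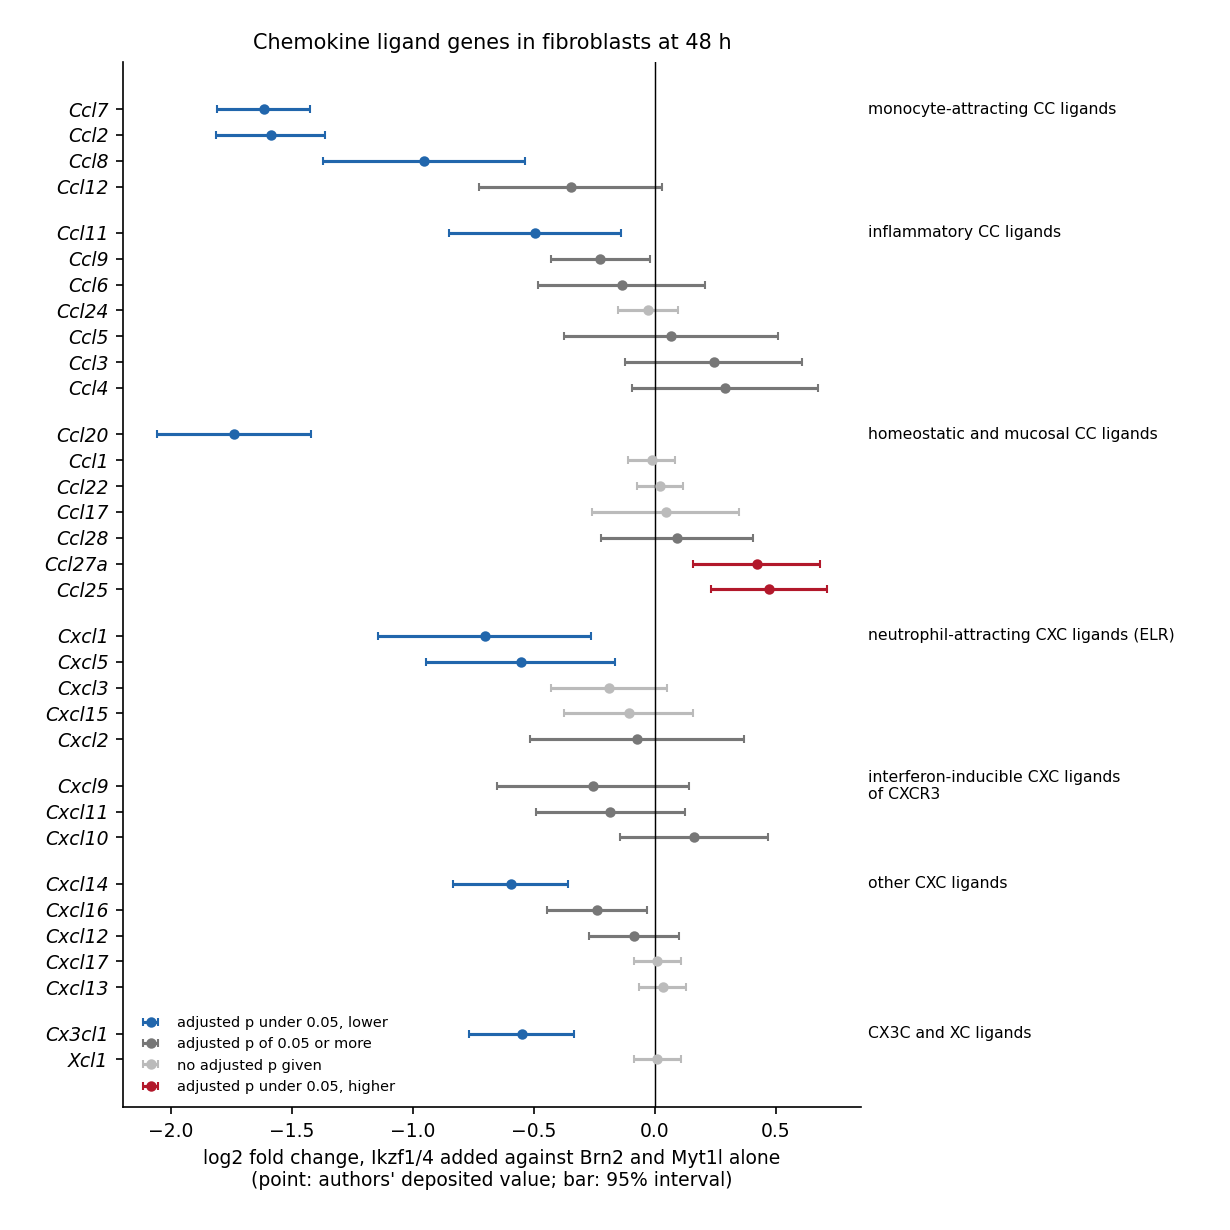
Log2 fold change of each chemokine ligand gene with reads (x axis; Ikzf1 and Ikzf4 added against Brn2 and Myt1l alone), by ligand group; points are the authors' deposited values and bars are their 95% intervals. Ccl20, Ccl7 and Ccl2 lie near -1.6 or lower, and Ccl25 and Ccl27a are the only members drawn as higher.

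The monocyte-attracting CC ligands, of which Ccl2, Ccl7 and Ccl12 act on CCR2, held the deepest falls as a group. Of their 4 members, 3 fell, against 15.4% of all genes, and none rose, at a median of -1.27. Ccl7 (ENSMUSG00000035373), at a mean of 606.4 normalised counts in the authors' deposited table, had a log2 fold change of -1.62 (SE 0.10, adjusted p = 2.54e-58), which is 0.326 of the level without Ikzf1 and Ikzf4. Ccl2 (ENSMUSG00000035385), the main monocyte chemoattractant of fibroblasts, had a mean of 1186 and a log2 fold change of -1.59 (SE 0.12, adjusted p = 6.91e-41). The intervals of Ccl7 (-1.81 to -1.42) and Ccl2 (-1.81 to -1.36) cover almost the same range. Among the 16757 genes ordered from the lowest fold change, Ccl7 was at rank 19 and Ccl2 at rank 21. Ccl8 fell as well, by -0.96 (SE 0.21, adjusted p = 6.38e-05) at a mean of 13.7. Ccl12, a relative of Ccl2 in mouse, was at -0.35 (SE 0.19, adjusted p = 0.172) at a mean of 8.04, with an interval from -0.73 to 0.03. The sources used here do not say how reads of related copies were divided between these genes.

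Ccl20 (ENSMUSG00000026166), the ligand of CCR6 that attracts dendritic cells and Th17 lymphocytes, had the lowest value of all members. At a mean of 164.3 normalised counts in the authors' deposited table it was lower by -1.74 (SE 0.16, adjusted p = 1.13e-24), at 0.299 of the level without Ikzf1 and Ikzf4 and rank 14 from the lowest of all genes. Its interval, -2.06 to -1.42, overlaps those of Ccl7 and Ccl2. It stands in the list of homeostatic and mucosal CC ligands, whose other members with an adjusted p did not fall.

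Both members that rose were in that same list. Ccl25 (ENSMUSG00000023235), the thymus and gut ligand of CCR9, had a mean of 338.4 and was higher by 0.47 (SE 0.12, adjusted p = 0.000732), a ratio of 1.39. Ccl27a (ENSMUSG00000073888), known as a skin ligand of CCR10, had a mean of 307.2 and was higher by 0.42 (SE 0.13, adjusted p = 0.00763), a ratio of 1.34. Ccl28, the other CCR10 ligand, was at 0.09 (SE 0.16, adjusted p = 0.727). The Ccl27a value is uncertain in its source: the symbol has 2 further gene IDs, both with no reads, and the gene overlaps the end of Il11ra1 by a few bases, which was lower by -0.35 (adjusted p = 6.48e-05). The sources used here do not say whether the counting used strand. Ccl1, Ccl17 and Ccl22 had means from 0.164 to 3.48 and no adjusted p, and the rows of Ccl19 and of the Ccl21 copies had no reads.

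The other inflammatory CC ligands, several of which are typical of macrophages, changed little. Of their 8 members 6 had an adjusted p, 1 fell and none rose, at a median of -0.03. A count of 1 of 6 is near the 15.4% of all genes called lower. The one that fell was Ccl11, the eosinophil attractant eotaxin, at -0.50 (SE 0.18, adjusted p = 0.0244) and a mean of 7.18. Ccl9 had a mean of 683.8 and a log2 fold change of -0.22 (adjusted p = 0.0891). Ccl4 was at 0.29 (adjusted p = 0.282), Ccl3 at 0.24 (adjusted p = 0.359), Ccl6 at -0.14 (adjusted p = 0.620) and Ccl5 at 0.07 (adjusted p = 0.869), with means from 34.6 to 136.5. All 4 intervals reach across 0. Ccl24 had a mean of 0.549 and no adjusted p, and Ccl26 had no reads.

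The CXC ligands gave falls in separate branches. Over all genes 15.4% were called lower and 15.3% higher. Of the 5 neutrophil-attracting ligands, which act on CXCR2, 3 had an adjusted p and 2 of these fell. These were Cxcl1 by -0.70 (SE 0.22, adjusted p = 0.00814) at a mean of 23.7 and Cxcl5 by -0.55 (SE 0.20, adjusted p = 0.0211) at a mean of 8.92. Cxcl2, a close relative of Cxcl1, was at -0.07 (SE 0.23, adjusted p = 0.856), with an interval from -0.52 to 0.37 that overlaps the interval of Cxcl1 (-1.14 to -0.26). Cxcl3 and Cxcl15 had means of 2.88 and 3.03 and no adjusted p. None of the 3 interferon-inducible ligands of CXCR3, which attract activated T cells, passed the threshold in the authors' deposited table, also at an unadjusted p (DESeq2) under 0.05. Cxcl10, at a mean of 428.8, was at 0.16 (SE 0.16, adjusted p = 0.485), with an interval from -0.14 to 0.47, Cxcl9 at -0.25 (adjusted p = 0.381) and Cxcl11 at -0.18 (adjusted p = 0.422), these last at means of 9.88 and 4.18.

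Cxcl14 and Cx3cl1 fell by amounts that their intervals do not separate. Cxcl14, a ligand of epithelia and stroma, had a mean of 712.1 and a log2 fold change of -0.60 (SE 0.12, adjusted p = 8.81e-06). Cx3cl1, or fractalkine, is held on the membrane by a stalk until ADAM10 or ADAM17 cuts it, and neurons are known to carry it toward the CX3CR1 of microglia. It had a mean of 479.2 and a log2 fold change of -0.55 (SE 0.11, adjusted p = 6.77e-06), at 0.683 of the level without Ikzf1 and Ikzf4. Cxcl12, the CXCR4 ligand made by stromal cells without a stimulus, was at -0.09 (SE 0.09, adjusted p = 0.559) at a mean of 4540, with an interval from -0.27 to 0.10. Cxcl16, the membrane-bound ligand of CXCR6, was at -0.24 (SE 0.11, adjusted p = 0.0740). Cxcl13, Cxcl17 and Xcl1 had means from 0.160 to 0.479 and no adjusted p. Of the members called, 5 of 11 also passed Holm's stricter adjustment, namely Ccl7, Ccl2, Ccl20, Cx3cl1 and Cxcl14, and both rises were lost under it.

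Chemokine genes of one type often lie side by side in the genome, and neighbouring members were set side by side in chromosome order (RefSeq, GRCm38.p6; members less than 200 kb apart). On chromosome 11, between 82035577 and 82179812, the order is Ccl2, Ccl7, Ccl11, Ccl12, Ccl8, Ccl1. All 5 members there with an adjusted p had a negative fold change in the authors' deposited table and 4 fell, against 15.4% of all genes. Among the 5, Ccl11, Ccl12 and Ccl8 had low means, of 7.18, 8.04 and 13.7. Only Ccl12 of those 5 did not pass the threshold. Further along, between 83525778 and 83664683, lie Ccl5, Ccl9, Ccl6, Ccl3 and Ccl4, of which none passed the threshold (authors' DESeq2), 2 with a negative and 3 with a positive sign, and 1, Ccl9, had an unadjusted p under 0.05. On chromosome 5, 2 of the 3 measured members of the Cxcl5 to Cxcl2 stretch fell, and none of the 3 of the Cxcl9 to Cxcl11 stretch passed the threshold or had an unadjusted p under 0.05. Of the other protein-coding genes with an adjusted p within 200 kb, 1 of 6 around Ccl5 to Ccl4 fell (Ap2b1) and 1 rose (Taf15). Of 5 around Cxcl5 to Cxcl2, which include the platelet chemokines Pf4 and Ppbp, 1 fell (Mthfd2l) and 1 rose (Rassf6), and of 8 around Cxcl9 to Cxcl11 none fell and 2 rose (Naaa and Scarb2). Around Ccl27a, which rose, 5 of 10 fell and 1 rose, and around Cx3cl1, which fell, 1 of 11 fell and 1 rose. Over all genes 15.4% were called lower and 15.3% higher, and counts such as 1 of 6 are near these shares. No other protein-coding gene with an adjusted p lay within 200 kb of the Ccl2 to Ccl1 stretch. Whether the stretches differ from each other was not tested.

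**Figure D2:**
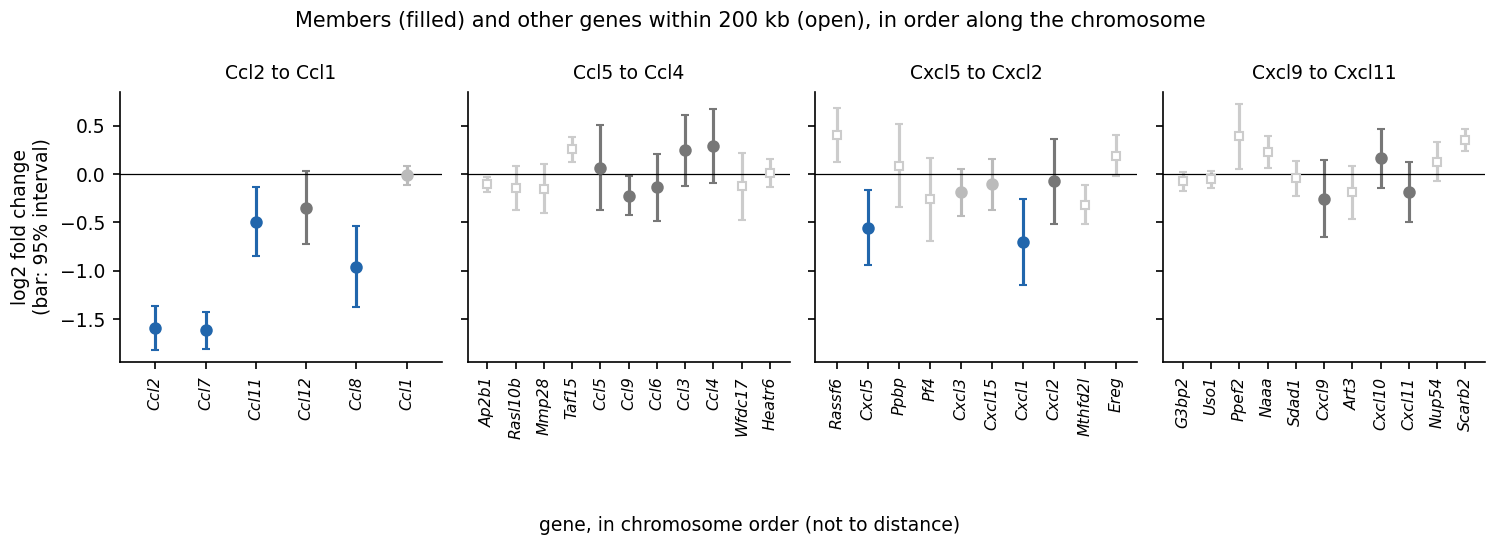
Log2 fold change (y axis, authors' deposited values with 95% intervals) of members (filled circles; blue fell, grey not past the threshold or with no adjusted p) and of other protein-coding genes within 200 kb (open squares) in their order on the chromosome, which is not drawn to distance. In the stretch from Ccl2 to Ccl1 the points of 4 members are blue, and in that from Ccl5 to Ccl4 none are.

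Of 20 chemokine receptor genes, 11 had an adjusted p in the authors' deposited table. None of the 11 was called lower, at an adjusted or unadjusted p under 0.05 (authors' DESeq2), against 15.4% of all genes, and 2 rose, against 15.3% of all genes. Cxcr2, the receptor of Cxcl1 and Cxcl5, rose by 0.77 (SE 0.17, adjusted p = 7.63e-05) and Cxcr6, the receptor of Cxcl16, by 0.51 (SE 0.19, adjusted p = 0.0269). The receptors of the ligands with the deepest falls, Ccr2 and Ccr6, had means of 3.55 and 0.160 and no adjusted p, and Cx3cr1 was at -0.27 (adjusted p = 0.138). Of the atypical receptors, which take ligands up without the usual signalling, 1 of the 4 with an adjusted p rose, Ackr3, a receptor of Cxcl12, by 0.82 (SE 0.18, adjusted p = 4.71e-05). Among 12 genes that cut or present ligands, 1 rose and 2 fell. The sheddases of Cx3cl1 and Cxcl16 moved in opposite directions, Adam17 by 0.36 (adjusted p = 1.59e-05) and Adam10 by -0.31 (adjusted p = 9.09e-09), and the gelatinase Mmp9 fell by -0.74 (adjusted p = 4.85e-06).

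Lists of regulators known to act on chemokine genes were read against the 15.4% of all genes called lower and the 15.3% called higher. The first list also holds targets of NF-kappaB, which are not regulators as such. Of 25 NF-kappaB subunits, inhibitors and targets, 6 fell and 4 rose in the authors' deposited table, at a median of -0.02. Of the targets, the adhesion molecule Vcam1 (-0.60, adjusted p = 8.67e-31) and Tnfaip2 (-0.63, adjusted p = 2.79e-09) fell, while Icam1 (0.71, adjusted p = 6.18e-11) rose. The subunit gene Rel (0.69, adjusted p = 1.87e-09) rose too. Of 20 interferon-response regulators, 3 fell and 2 rose, at a median of -0.07, a share no higher than that over all genes. These included the interferon signal transducer Stat2 at -0.85 (adjusted p = 6.78e-21), the interferon-induced protease Usp18 at -0.92 (adjusted p = 1.41e-17), the receptor chain Ifnar1 at -0.17 (adjusted p = 0.00457) and, higher, Stat3 at 0.28 (adjusted p = 1.07e-05). Of 11 measured nucleic acid sensors and their kinases, 6 fell and none rose, at a median of -0.38. The double-stranded RNA sensors Ifih1 (-0.75, adjusted p = 4.41e-15), Ddx58 (-0.38, adjusted p = 1.62e-08) and Tlr3 (-0.82, adjusted p = 7.14e-10) and the sensor Zbp1 (-0.80, adjusted p = 0.000348) were among them. These lists were drawn up with earlier results of the data known, so their directions are no independent evidence. Markers of other cells did not share one direction: none of 7 measured endothelial markers passed the threshold, adjusted or not (DESeq2), and 2 of 4 epithelial markers rose, Krt19 by 0.61 and Epcam by 0.64.

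**Figure D3:**
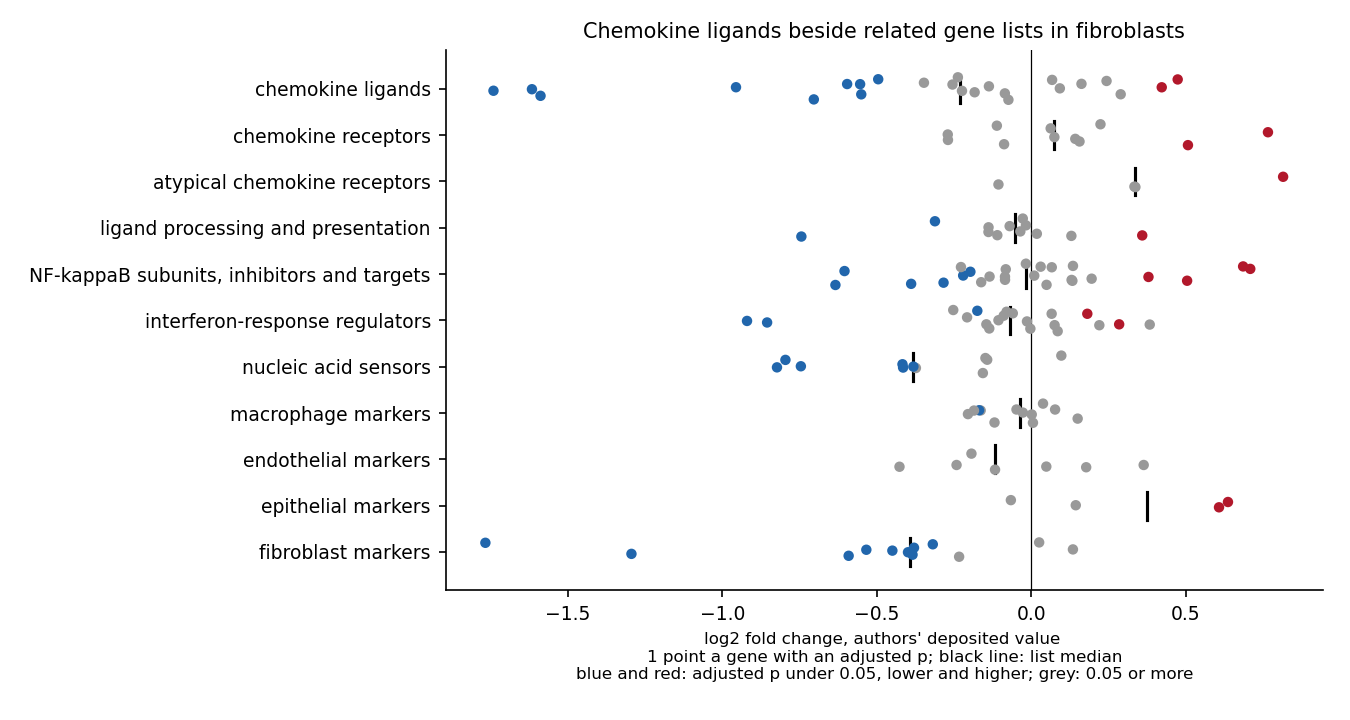
Log2 fold change (x axis, authors' deposited values) of each gene with an adjusted p in the chemokine ligands and in 10 related or marker lists; blue genes fell, red rose, grey were not past the threshold, and black lines are list medians. The lowest single points are those of the ligands and the fibroblast markers, whose list medians are -0.23 and -0.39. The median of the nucleic acid sensors is -0.38.

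In the retina, the gene windows of the chemokines were read in the multiome libraries as unique fragments over the gene and 2 kb on both sides. The control library held 52119123 fragments with 1882 cells at a median of 6251 fragments, and the Ikzf1/4 library 29358834 fragments with 695 cells at a median of 10998; 3 cell barcodes occurred in both. With 1 library for each label there is no test, and every interval covers counting error only. Of the 39 member windows, 34 held fragments. The other 5, of Ccl19, Ccl19-ps1, Ccl21a, Ccl21b and Ccl21d, held none in either library. They lie in a stretch of chromosome 4 in which 38 of 39 gene windows held no fragment, against 1.42% of all gene windows. The cause was not tested.

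Between the libraries, counted over all barcodes, the chemokine windows did not stand apart from other windows. In cells only and in deeply read barcodes more of them were past 1.5-fold. Cells held 26.3% of the control fragments and 31.9% of the Ikzf1/4 fragments. The count over all barcodes thus rests mostly on fragments outside cells and is no result about nuclei alone. Depth of reading differed too, at 1.96 read pairs per unique fragment for the control against 4.59 for Ikzf1/4, and its part in the ratios was not tested. Over all barcodes only Ccl6 of the 34 was past a ratio of 1.5 in either direction, against 7.78% of 47093 windows, and its interval was 0.454 to 0.786 around a ratio of 0.60 for the Ikzf1/4 library over the control. Scaled to the library total and given as CPM, it held 4.14 CPM in the control against 2.49 with Ikzf1/4. The median ratio of the 34 windows was 0.98, against 1.02 over every compared window. Intervals excluded 1 for 9 of the 34, against 38.4% of all windows, and against 33.2% of windows with no more fragments than the fullest member window. Ratios below 1 were those of Ccl6, Ccl9 (0.69), Ccl2 (0.72), Cxcl2 (0.72), Ccl4 (0.78), Cxcl17 (0.84) and Cx3cl1 (0.87), and those above 1 were Cxcl9 (1.26) and Cxcl11 (1.31), whose windows both overlap that of Art3. Counted in cells only, 6 of 23 compared member windows were past 1.5-fold, all lower with Ikzf1/4, against 11.2% of all windows. In barcodes with at least 10000 fragments 11 of 28 were, 8 lower and 3 higher, against 12.6%. In cells without the microglia-like class described below 2 of 16 were, against 11.1%. The limit of 10000 fragments kept 60 of 123 microglia-like cells and 675 of 2454 other cells, so it changes the mix of nuclei. The shares over all windows under these settings were not matched to the fragment counts of the member windows. The part of either in the counts was not tested. Of the members with the deepest falls in fibroblasts, the window of Ccl20 had 89 and 60 (ratio 1.20, 0.848 to 1.68), that of Ccl7 143 and 72 (0.89, 0.664 to 1.19) and that of Ccl2 217 and 88 (0.72, 0.555 to 0.926), control first. In cells only the ratio of Ccl2 was 0.448 (0.285 to 0.685) and that of Ccl7 0.652 (0.365 to 1.13). In barcodes with at least 10000 fragments they were 0.510 (0.322 to 0.7998) and 0.542 (0.308 to 0.944), so the interval of Ccl7 excluded 1 there and not over all barcodes. The window of Ccl25 held 1727 and 1004 fragments, at a ratio of 1.03 (0.954 to 1.12), and overlaps that of Elavl1.

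**Figure D4:**
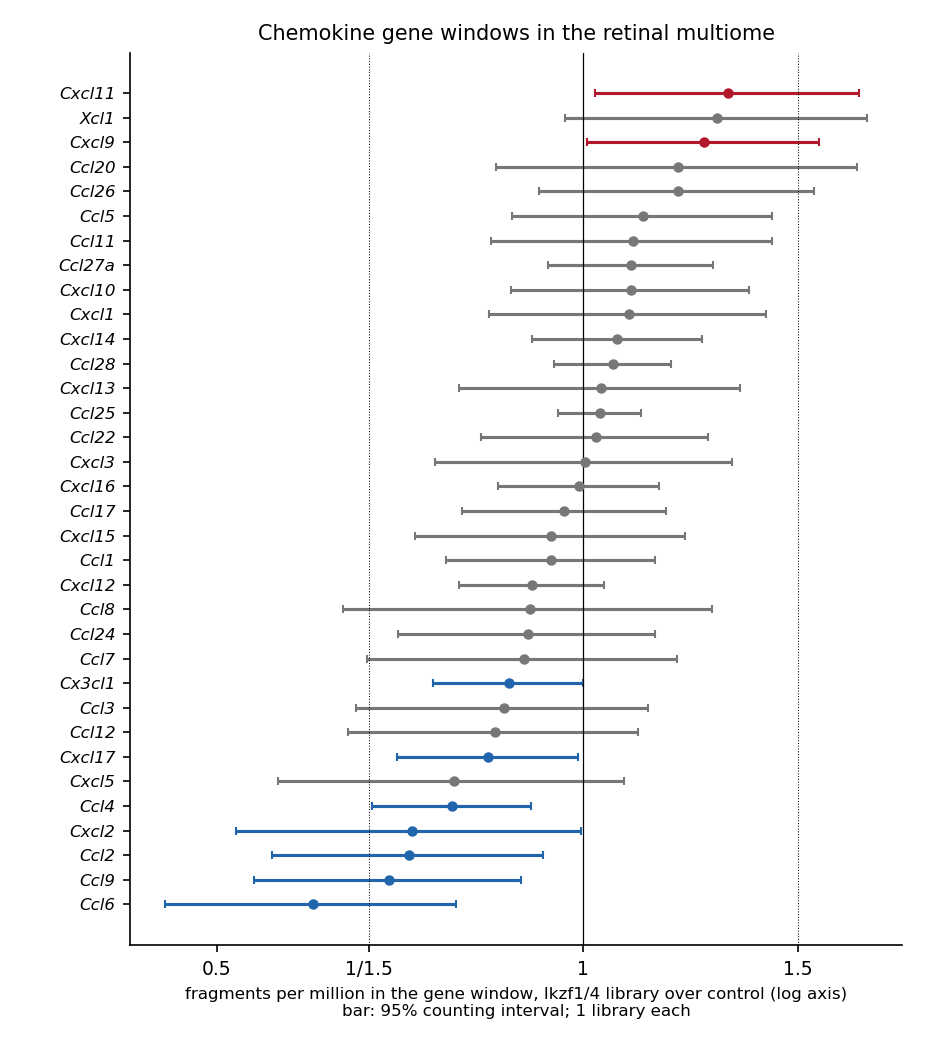
Ratio of CPM in each chemokine gene window, Ikzf1/4 library over control (x axis, log scale), with 95% counting intervals and 1 library for each label; blue and red intervals exclude 1 and dotted lines mark 1.5-fold. The values run from 0.60 for Ccl6 to 1.31 for Cxcl11.

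Microglia-like nuclei differed in number between the libraries. The microglia-like class was 5.63% of the control cells (106 cells, exact interval 4.63% to 6.77%) and 2.45% of the Ikzf1/4 cells (17 cells, 1.43% to 3.89%). Over all barcodes, 8 of the 10 microglia marker windows had a ratio below 1 (range 0.732 to 1.06), and their sum was 182.9 CPM in the control against 166.8 CPM. In cells only, with that class kept, the ratio of Ccl2 was 0.448 and that of Cxcl9 0.698 (0.388 to 1.22). In cells without that class they were 0.321 (0.170 to 0.568) and 0.712 (0.394 to 1.25), so the interval of Cxcl9 covered 1 in cells with or without that class. Within the microglia-like nuclei themselves the member windows were summed without Ccl3, whose window lies largely inside that of Ccl4. The sum stood at 567.8 CPM (599 fragments, control) and 714.2 CPM (171 fragments, Ikzf1/4), a ratio of 1.26 (1.05 to 1.49). The windows in this class did not share one direction. Ccl25, whose window overlaps that of Elavl1, stood at 67.3 CPM (71 fragments) in the control and 121.1 CPM (29) with Ikzf1/4. Cxcl10 stood at 26.5 CPM (28) in the control and 12.5 CPM (3) with Ikzf1/4. A sum without Ccl25 was not made, so the ratio of the sum is no result about chemokine windows alone. The part of the share of these nuclei in the ratios over all barcodes was not tested.

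Across the classes of nuclei, the chemokine windows were most open in the microglia-like class. Clusters were made without the member windows and named from markers. Of the control cells, labelled as Muller glia, 33.9% were Muller glia-like and 33.6% bipolar-like. The bipolar-like class joins clusters 0, 4 and 9, in which the bipolar markers had a mean log2 fold of 0.67, 1.74 and 0.59. Of these only cluster 4 held bipolar markers among its 10 leading windows, so the name is less certain for clusters 0 and 9. The Muller glia-like class joins clusters 1 and 3, in both of which all 8 Muller glia markers were higher than elsewhere. Their mean log2 fold was 1.46 in cluster 1 and 1.64 in cluster 3. The next marker lists were endothelial and mural in cluster 1 (0.48) and astrocyte in cluster 3 (0.46). The 10 leading windows of cluster 3 held an astrocyte marker (Gfap) and an amacrine marker (Pax6), and no Muller glia marker was among those of either cluster, so this class is compared between the libraries by cluster only. Cluster 1 held 19.6% of the control cells and 7.34% of the Ikzf1/4 cells, and cluster 3 held 14.3% and 11.2%. The member windows were summed with Ccl3 left out, because its window lies largely inside that of Ccl4. The 123 microglia-like nuclei had 594.9 CPM and the 2454 other nuclei 214.7 CPM, a ratio of 2.77 (2.56 to 2.99). Ccl4 alone gave 190 of the 770 fragments summed in the microglia-like nuclei. The median ratio of single coding windows was 0.99, which is not the same measure as a ratio of sums. Of the 34 windows, 21 were highest in the microglia-like class, 9 of them with an interval apart from that of the next class, and no other class was highest with its interval apart. The same shares over all gene windows were not counted, so these counts have no background. Some of the 21 rest on few fragments in this class, such as Xcl1 on 3 and Ccl8 on 2. The window of Cx3cl1 was lower in this class, at 11.6 CPM (6.49 to 19.1), than in bipolar-like nuclei, at 30.4 CPM (26.5 to 34.8). The microglia-like cluster was led by C3ar1, Tnf and Osm, and all 10 of its markers were higher in it than elsewhere.

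The 9 windows apart were those of inflammatory ligands that macrophages are known to make, with Cxcl16 and Cxcl10. Ccl4 stood at 146.8 CPM in microglia-like nuclei and 4.13 in rod-like nuclei, the next class. The window of Ccl3, which stood at 71.9 CPM against 1.55, lies largely inside that of Ccl4, so the same fragments can count in both. Ccl12 stood at 36.3 against 3.17 and Ccl9 at 29.4 against 7.22. Cxcl16 stood at 54.1 CPM against 23.8 in Muller glia-like nuclei, but its window overlaps those of Med11 and Zmynd15. Ccl24 (24.7 CPM), Cxcl10 (24.0 CPM, overlapping Art3) and Cxcl2 (12.4 CPM) completed the set together with Ccl2. Per kilobase of window, Ccl3 had the highest value in this class, at 13.0 CPM, followed by Ccl4 at 7.32 and Ccl12 at 6.54.

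After the microglia-like class, the Ccl2 window was highest in Muller glia-like nuclei. It stood at 34.0 CPM in microglia-like nuclei (24.7 to 45.6), at 8.82 in Muller glia-like nuclei (6.46 to 11.8) and at 2.58 in cone-like and 1.73 in bipolar-like nuclei (0.894 to 3.02). Cluster 1 stood at 11.3 CPM (7.97 to 15.6) and cluster 3 at 4.63 (2.12 to 8.79), and these intervals overlap. The interval of cluster 3 overlaps that of cone-like nuclei (1.24 to 4.74). In cluster 1 the window held 33 fragments in the control (12.5 CPM, 8.61 to 17.6) and 4 in the Ikzf1/4 library (6.32 CPM, 1.72 to 16.2), whose intervals overlap. In cluster 3 it held 9 (6.67 CPM, 3.05 to 12.7) and 0, which allows up to 6.203 CPM (exact interval). Cx3cl1 had another order: 30.4 CPM in bipolar-like nuclei (26.5 to 34.8) and 27.0 in amacrine-like nuclei (15.7 to 43.2), which do not differ beyond their intervals, against 9.59 in Muller glia-like and 5.67 in cone-like nuclei. In bipolar-like nuclei it stood at 32.2 CPM in the control, where cluster 0 held 463 of the 633 nuclei, against 28.0 CPM with Ikzf1/4, where clusters 0 and 4 held 116 and 120 of 239. By cluster the order was not the same: cluster 0 stood at 32.6 CPM in the control (26.5 to 39.7) against 21.0 (14.3 to 29.8), and cluster 4 at 33.4 (22.0 to 48.7) against 35.7 (26.5 to 47.1), with overlapping intervals in both. Cxcl12 was highest in Muller glia-like nuclei, at 17.1 CPM, and its interval overlaps that of bipolar-like nuclei. For Cxcl12 cluster 1 stood above cluster 3, at 21.7 CPM (17.0 to 27.4) against 9.26 (5.49 to 14.6), with the intervals apart. Ccl20, which had the lowest fold change in fibroblasts, reached at most 0.767 CPM in a named class, from 4 fragments in Muller glia-like nuclei.

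**Figure D5:**
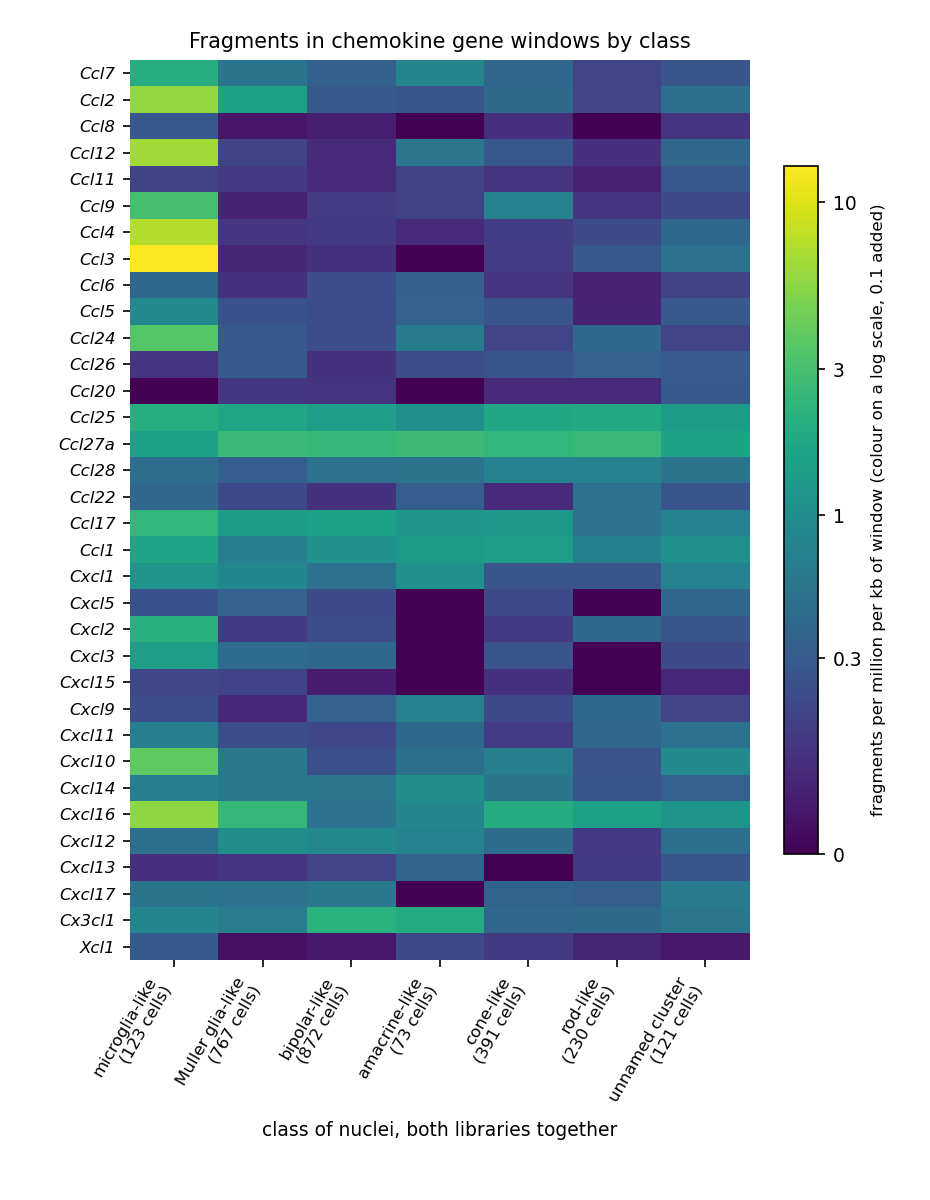
CPM per kilobase of window (colour, log scale) for each chemokine gene window with fragments (rows) in each class of nuclei (columns), both libraries together. The brightest cells are those of Ccl3, Ccl4 and Ccl12 in the microglia-like class, at 13.0, 7.32 and 6.54, and Cx3cl1 is brightest in bipolar-like nuclei, at 2.14.

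In the retinal libraries the fragments in the promoter windows ranged widely between members. The Ccl25 window printed above held 13.9 CPM over both libraries, at the 95.7th percentile of all promoter windows. It overlaps the gene window of Elavl1, so its level cannot be credited to Ccl25 alone. The other window of Ccl25 held 0.233 CPM, at the 39.3rd percentile. Of the 3 windows of Ccl27a, a pair that overlap held 4.12 and 4.09 CPM and the third, at 41770163, held 0.0614 CPM. Those of Cx3cl1 (83 fragments in the control and 47 with Ikzf1/4), Cxcl10 (1.08 CPM) and Cxcl1 (0.798 CPM) were above the median of 0.331 CPM. Those of Ccl8 (0.196 CPM) and Ccl20 (0.0736 CPM, 6 fragments in all) were below it.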

How the data were processed

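The fibroblast values come from the comparison that the authors deposited as a table, a DESeq2 result per the submitters' processing notes. The table deposited by the authors gives a mean normalised signal per gene (the mean normalised count of the text), p-values before and after adjustment, a log2 fold change with its error, and the Wald test's score. The authors deposited salmon estimated counts per transcript, used here for depth only, because no source here ties a transcript to its gene. The test planned per gene and library (edgeR's quasi-likelihood test) was therefore not run. Benjamini-Hochberg adjustment of the deposited p-values over the genes with an adjusted p matched the deposited adjusted values within 3.9e-07. Called means an adjusted p under 0.05, and intervals of fold changes are 95% normal intervals from the deposited standard error. The deposited ATAC-seq peak lists were not used, because the sources used here do not state their build and some coordinates ran past the end of mm10 chromosome 1.

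The deposited multiome fragment files list each unique fragment with its count of read pairs, made by cellranger-arc 2.0.1 on mm10, per the file headers. Fragments were counted in RefSeq gene windows (GRCm38.p6, 2 kb flanks) and scaled to the library total (CPM), with exact Poisson intervals for levels and exact conditional binomial intervals (95%) for ratios, which cover counting error only. Windows with fewer than 50 fragments over both libraries were not compared. A barcode counted as a cell from 3000 fragments upward if fragments were at least 4 times enriched at gene ends; the barcodes above the 99th percentile of each library were dropped, and no doublet caller was run. They were clustered over 17760 windows without the members (28 of 30 components, 20 neighbours, Leiden resolution 1) and named where marker windows were on average over 0.3 higher (log2), with at least 3 markers higher; 1 cluster of 121 cells stayed unnamed. The interval and adjustment steps were tested on simulated data. Tools were Python 3.11.15, pandas 2.3.3, scipy 1.17.1 and leidenalg 0.10.2.

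Members, gene lists, motifs, the 200 kb distance, the 1.5-fold limit and the minimum of 50 fragments were chosen with earlier results of these data known. Named genes were members with a mean of at least 10 or a call, up to 4 genes with the smallest adjusted p per related list, and windows by interval or level; further members are named to account for all. Receptors without an adjusted p were named as partners of the ligands after their values were seen.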

Additional observations from a re-analysis of the deposited data

How the results depend on the processing

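No paired analysis was possible because the deposited fibroblast comparison holds no values per library; leaving out a replicate, other normalizations and DESeq2 or edgeR on gene counts could not be run either. Of the 11 members called, 5 passed Holm's adjustment (all lower), 3 passed with an absolute log2 fold change over 1, and 7 had a mean of at least 100; the cause of each smaller count is the stricter limit itself. Counts under the other thresholds and filters (adjusted p under 0.01 or 0.1, mean of at least 10, adjustment over every gene with a p) stayed within 1.5 times, and the median stayed negative, from -0.23 to -0.11, as did the mean, at -0.36. In the multiome, 1 of 34 windows was past 1.5-fold over all barcodes (7.78% of all windows), 6 of 23 in cells only (11.2%), 11 of 28 in barcodes with at least 10000 fragments (12.6%), 4 of 33 over the gene body (6.71%), 5 of 33 within 500 bp of gene ends (15.9%), 2 of 34 scaled to all gene windows (8.84%), and 2 of 16 in cells without the microglia-like class (11.1%), an alternative chosen after seeing the data. Counting read pairs left 1. The ratio of Cxcl9 was 0.698 (0.388 to 1.22) in cells only, 0.925 (0.562 to 1.54) in barcodes with at least 10000 fragments and 0.712 (0.394 to 1.25) without the microglia-like class, and within 500 bp of gene ends Ccl4 was at 1.04 and Cxcl17 at 1.08. These values lie on the other side of 1, but every one of their intervals covers 1; the cause was not tested. The microglia-like sum over other cells was 2.67 in cells with at least 10000 fragments and 2.73 without the unnamed cluster, a setting also added after seeing the data. Small numbers of nuclei limit the class values: amacrine-like nuclei of the Ikzf1/4 library numbered 2 and microglia-like ones 17.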

Other observations

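Pf4 and Ppbp, platelet chemokines whose symbols fall outside the naming rule, lie between Cxcl5 and Cxcl3 on chromosome 5 and did not pass the threshold in the authors' deposited table. Pf4 was at -0.26 on the log2 scale (adjusted p = 0.405, authors' DESeq2) at a mean of 52.3 normalised counts, and Ppbp at 0.09 (adjusted p = 0.826) at a mean of 44.1.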
